A study of Danio rerio with 12 samples.

Results

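The zebrafish uncoupling protein genes ucp1 (ENSDARG00000023151), ucp2 (ENSDARG00000043154) and ucp3 (ENSDARG00000091209) are 3 of the 30258 genes in the deposited count table, and all 3 were among the 13978 genes with enough counts to be tested. The 3 genes were chosen by family name with earlier results of these data known. That choice names no comparison, so their levels in all 4 groups are counted here as values that may have drawn attention to them. Levels and fold changes of these genes are therefore a description, and no p-value is given for them.

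Uncoupling proteins are carriers of the inner mitochondrial membrane, members of the large SLC25 family. In mammals UCP1 lets protons return to the matrix without making ATP, which releases heat in brown fat. UCP2 is made in many mammalian tissues, immune cells among them, and UCP3 mainly in skeletal muscle, where both have been linked to fatty acid use and to the control of reactive oxygen species. In zebrafish ucp2 and ucp3 are neighbours on 1 chromosome, as their counterparts are in mammals, and ucp1 lies on another, by symbol in the RefSeq table of the assembly GRCz12tu.

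The tissue was the end of the tail of wild-type zebrafish larvae, and each library came from a pool of 100 tails. Uncut DMSO larvae were given dimethyl sulfoxide at 0.1% as the vehicle and were cut once, for RNA, at 90 h post fertilization. Cut DMSO larvae had the same vehicle, lost about 200 µm of tail at 72 h and gave a further 200 µm for RNA 18 h later. Uncut SB431542 and cut SB431542 larvae followed the same cutting schedules, with 50 µM SB431542 from 72 to 90 h. Exposure thus began with the excision and ended with the collection. The labels give no DMSO percentage for the SB431542 groups. SB431542 blocks the kinase activity of ALK4, ALK5 and ALK7, the type I receptors for TGF-β, activin and nodal ligands. Each group had 3 libraries. Nothing in the labels ties replicates to separate clutches, so the spread between libraries may be partly technical.

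Total counts ran from 7368986 to 12914981 per library. Replicate 4 of the uncut SB431542 group stood apart, with a median correlation of 0.905 with the other libraries against 0.934 to 0.944 for the other 11. It was kept, and the results it bears on most are also given without it. Muscle and epidermal markers were abundant, at a summed 87042 to 185185 and 11624 to 29296 CPM (counts scaled to library size), as the tail label implies. In bulk tissue, fewer cells that express a gene and less RNA per cell cannot be told apart.

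ucp1 was the most abundant of the 3 transcripts, with a mean of 304 CPM over the 12 libraries, above 97.6% of tested genes. The mean was 69.6 CPM for ucp2 and 19.9 CPM for ucp3. These libraries read the 3′ end of each transcript once, so a count does not grow with transcript length, although how well each 3′ end is primed and annotated can still differ between genes. Counting error alone was 1.61% to 2.52% for ucp1, 2.59% to 7.56% for ucp2 and 4.76% to 11.5% for ucp3. Reads of ucp2 and ucp3 were whole numbers in every library. Those of ucp1 were fractional in 11 libraries and lay within 0.24 of a whole read. The gene next to ucp2 in the RefSeq table, dnajb13, had 0 to 3 counts per library.

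**Figure D1:**
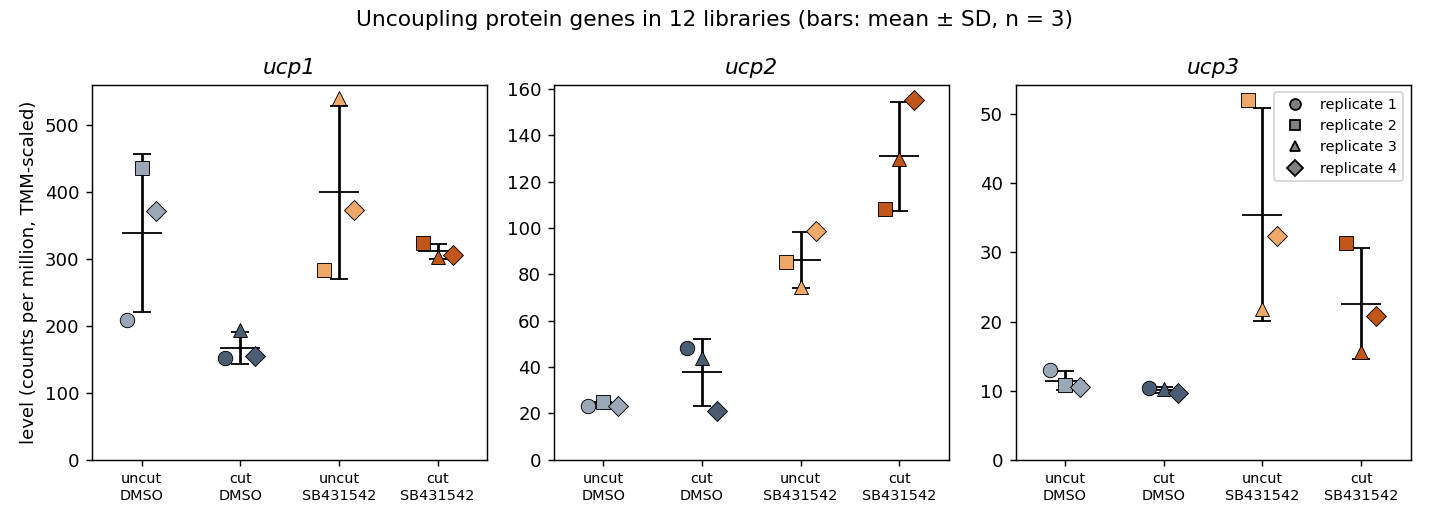
Level of each uncoupling protein gene (CPM, linear axes from 0) in the 12 libraries, by group; symbols give the replicate number, horizontal marks the mean and bars the SD of 3 libraries. All 6 SB431542 libraries lie above all 6 DMSO libraries for ucp2 and ucp3, while the ucp1 levels of the treatments overlap.

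ucp2 showed the widest separation between treatments. In uncut tails with DMSO it stood at 23.2, 24.98 and 23.4 CPM in replicates 1, 2 and 4, and with SB431542 at 85.1, 74.6 and 98.6 CPM in replicates 2, 3 and 4. In cut tails it stood at 48.1, 43.9 and 21.0 CPM with DMSO (replicates 1, 3 and 4) and at 108, 130 and 155 CPM with SB431542 (replicates 2, 3 and 4). The lowest SB431542 library, at 74.6 CPM, was thus above the highest DMSO library, at 48.1 CPM, whether or not the tail had been cut.

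The group means of ucp2 with SB431542 and with DMSO were 86.1 ± 12.02 (SD, n = 3) and 23.9 ± 0.964 CPM in uncut tails, a log2 fold change of 1.85 ± 0.25 (SE), or 3.61-fold. In cut tails they were 131 ± 23.5 and 37.6 ± 14.6 CPM, a log2 fold change of 1.80 ± 0.24, or 3.47-fold. The uncut and cut comparisons have no library in common, and their log2 fold changes differed by -0.06 ± 0.34. Without replicate 4 of uncut SB431542 the log2 fold change in uncut tails was 1.74. Of all tested genes 97.94% in uncut tails and 99% in cut tails had a smaller change in size.

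ucp3 was also higher with SB431542, from a lower base and with more spread. In uncut tails it stood at 13.0, 10.9 and 10.5 CPM with DMSO (replicates 1, 2 and 4) and at 52.1, 21.8 and 32.5 CPM with SB431542 (replicates 2, 3 and 4). In cut tails it stood at 10.4, 10.3 and 9.60 CPM with DMSO (replicates 1, 3 and 4) and at 31.3, 15.6 and 20.8 CPM with SB431542 (replicates 2, 3 and 4). The 6 DMSO libraries lay within 9.60 to 13.0 CPM and the 6 SB431542 libraries between 15.6 and 52.1 CPM, without overlap.

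The ucp3 log2 fold change was 1.64 ± 0.30 in uncut tails, from 11.5 ± 1.36 to 35.4 ± 15.4 CPM (n = 3 each), or 3.12-fold. In cut tails it was 1.15 ± 0.30, from 10.1 ± 0.428 to 22.6 ± 8.02 CPM, or 2.22-fold. The spread of ucp3 in the SB431542 groups, with coefficients of variation of 43.5% and 35.5%, was well above its counting error. In both SB431542 groups replicate 2 was the highest and replicate 3 the lowest, at 0.64 and -0.61 log2 units from the group mean in uncut tails and 0.53 and -0.47 in cut tails. The labels do not say that libraries of equal number share a clutch or day. Without replicate 4 of uncut SB431542 the log2 fold change in uncut tails was 1.71, and without replicate 2 of that group 1.26.

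For ucp1 the treatments did not overlap in cut tails and overlapped in uncut ones, and its interaction of excision and SB431542 was not called. In cut tails it stood at 152, 194 and 154 CPM with DMSO (replicates 1, 3 and 4) and at 324, 303 and 306 CPM with SB431542 (replicates 2, 3 and 4), so the groups did not overlap. The log2 fold change there was 0.90 ± 0.25, from 167 ± 23.5 to 311 ± 11.1 CPM, or 1.86-fold. In uncut tails ucp1 stood at 208, 436 and 371 CPM with DMSO (replicates 1, 2 and 4) and at 284, 540 and 373 CPM with SB431542 (replicates 2, 3 and 4). The uncut groups overlapped almost fully, with a log2 fold change of 0.24 ± 0.25 that became -0.02 without DMSO replicate 1 and -0.04 without SB431542 replicate 3.

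**Figure D2:**
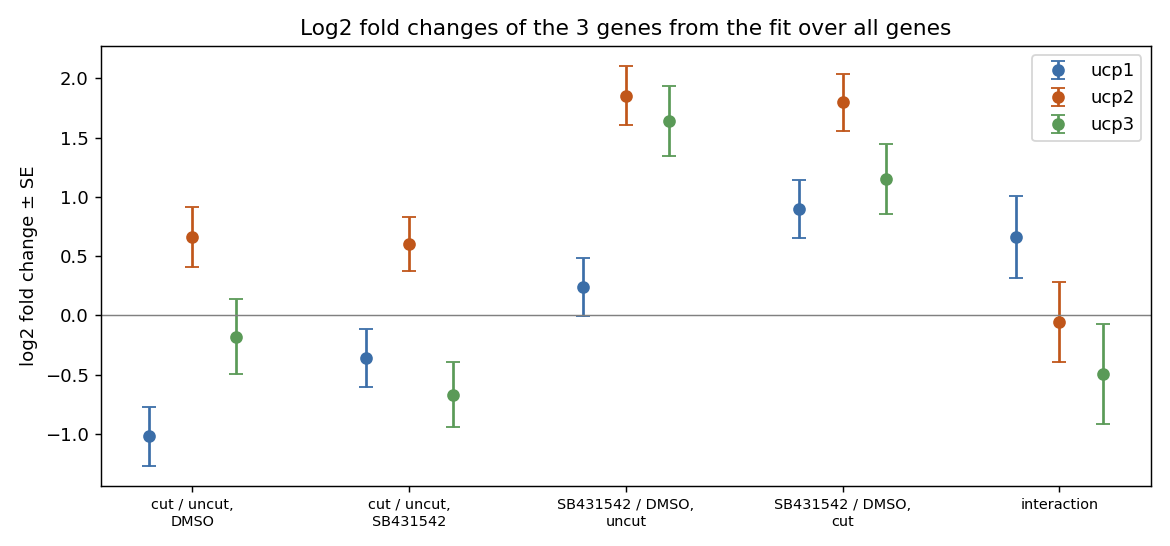
Log2 fold change ± SE of ucp1, ucp2 and ucp3 in each comparison, from the fit over all genes; the interaction is the excision log2 fold change with SB431542 minus that with DMSO. The ucp2 values with SB431542 lie at 1.85 in uncut and 1.80 in cut tails, and the ucp1 value after excision lies at -1.02 with DMSO and -0.36 with SB431542.

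In the fit over all genes (edgeR's quasi-likelihood test, calls at a Benjamini-Hochberg adjusted p under 0.05), SB431542 gave few calls of any kind. In uncut tails 0.0787% of tested genes were called and 0.0644% were called higher, and ucp2 and ucp3 were among the latter. In cut tails 0.286% were called and 0.179% were called higher, with ucp2 among them and ucp1 and ucp3 not. Since these comparisons may have chosen the genes, nothing is read from those counts. The SB431542 libraries lay wholly above the DMSO libraries in many more genes: 3 against 3 in 12.6% of tested genes in cut tails, where this held for all 3 members, in 9.48% in uncut tails, where it held for ucp2 and ucp3, and 6 against 6 in 1.57%, ucp2 and ucp3 again among them. In uncut tails the ucp2 call was lost when any 1 of the 3 uncut DMSO libraries was left out, with no gene at all called in those fits, while its log2 fold change stayed between 1.83 and 1.88. In cut tails ucp2 was among the 9 to 473 genes called whichever library was left out, with log2 fold changes of 1.51 to 2.01. The ucp3 call in uncut tails was lost in 11 of the 12 fits that left out 1 library, holding only without uncut SB431542 replicate 3. That fit called 666 genes in uncut tails in place of 11. In cut tails ucp3 was called when any 1 of the 3 uncut SB431542 libraries was left out, with a log2 fold change of 1.14 to 1.15. Those fits, without replicates 2, 3 and 4, called 153, 106 and 473 genes in cut tails in place of 40. The libraries left out there are not part of the cut comparison. Nothing is read from the calls of the members in these fits either.

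After excision under DMSO ucp1 was lower and ucp2 higher on the means. ucp1 was 2.03-fold lower in cut than in uncut tails (log2 fold change -1.02 ± 0.25), and its highest cut library, at 194 CPM, was below its lowest uncut one, at 208 CPM. ucp2 was 1.58-fold higher on the means (log2 fold change 0.66 ± 0.25), but the groups overlapped: cut replicates 1 and 3 were above every uncut library, at 48.1 and 43.9 CPM, and cut replicate 4, at 21.0 CPM, was below every one. Without that replicate the ucp2 log2 fold change was 0.95. For ucp3 the values were close, at a log2 fold change of -0.18 ± 0.32.

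Under SB431542 the same 3 comparisons kept their signs. ucp1 was lower by a log2 fold change of -0.36 ± 0.25 with overlapping groups, since cut libraries at 303 to 324 CPM lay within the uncut range of 284 to 540 CPM, and by -0.08 without uncut SB431542 replicate 3. ucp2 was higher by 0.60 ± 0.23, with every cut library, from 108 CPM, above every uncut one, up to 98.6 CPM. ucp3 was lower by -0.67 ± 0.27 with overlapping groups, and by -0.30 without uncut SB431542 replicate 2. Each excision comparison shares libraries with the SB431542 comparisons above, so these values are not independent of them.

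Under DMSO 5.58% of tested genes were called after excision, 3.65% higher and 1.93% lower, and ucp1 was among those called lower. Its call was lost without cut DMSO replicate 1 or 4 or uncut DMSO replicate 2 or 4, with log2 fold changes of -0.80 to -0.96. The call of ucp2 was gained without cut DMSO replicate 4, when 638 genes were called in place of 780. These calls of the members are given as a description only. Under SB431542 2.06% were called, none of the 3 among them. Under DMSO 13.1% of tested genes had all 3 cut libraries below all 3 uncut ones, as ucp1 and ucp3 had, and under SB431542 9.69% had all 3 cut libraries above, as ucp2 had. The interaction of excision and SB431542 was 0.66 ± 0.35 for ucp1, -0.06 ± 0.34 for ucp2 and -0.49 ± 0.42 for ucp3. Of all tested genes 0% were called for it by edgeR, where 706 had an unadjusted p under 0.05, and 0 genes were called by DESeq2, where 727 did. Where no gene differs, a share of 0.05 of the tested genes falls under that p. The edgeR count over all 12 libraries is close to that share of 13978 genes. With 1 library left out it ran from 455 to 1370, the most without uncut SB431542 replicate 2, with 0 genes called in each fit. Its nearness to that share thus depended on the libraries used.

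In order of mean level, ucp2 ran from 23.9 CPM in uncut DMSO through 37.6 in cut DMSO and 86.1 in uncut SB431542 to 131 in cut SB431542, and only the first neighbours in that order overlapped. ucp3 ran from 10.1 CPM in cut DMSO through 11.5 in uncut DMSO and 22.6 in cut SB431542 to 35.4 in uncut SB431542, and only the last neighbours overlapped. ucp1 ran from 167 CPM in cut DMSO through 311 in cut SB431542 and 338 in uncut DMSO to 399 in uncut SB431542, and there only the lowest group was free of overlap with its neighbour.

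The make-up of the family differed between the groups as well as its sum. The summed level of the 3 genes was 374 ± 117 CPM in uncut DMSO, 215 ± 31.7 in cut DMSO, 521 ± 108 in uncut SB431542 and 465 ± 16.6 in cut SB431542 (n = 3 each). ucp1 held 89.7% ± 3.97 of that sum in uncut DMSO tails and ucp2 6.86% ± 2.30. In cut SB431542 tails ucp1 held 67.0% ± 3.23 and ucp2 28.1% ± 4.47. The ratio of ucp1 to ucp2 was 8.97 to 17.5 in the uncut DMSO libraries and 1.98 to 3.00 in the cut SB431542 libraries. The other groups lay between, with mean ratios of 4.98 in cut DMSO and 4.79 in uncut SB431542. ucp3 held 3.40% to 7.41% of the sum on average.

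**Figure D3:**
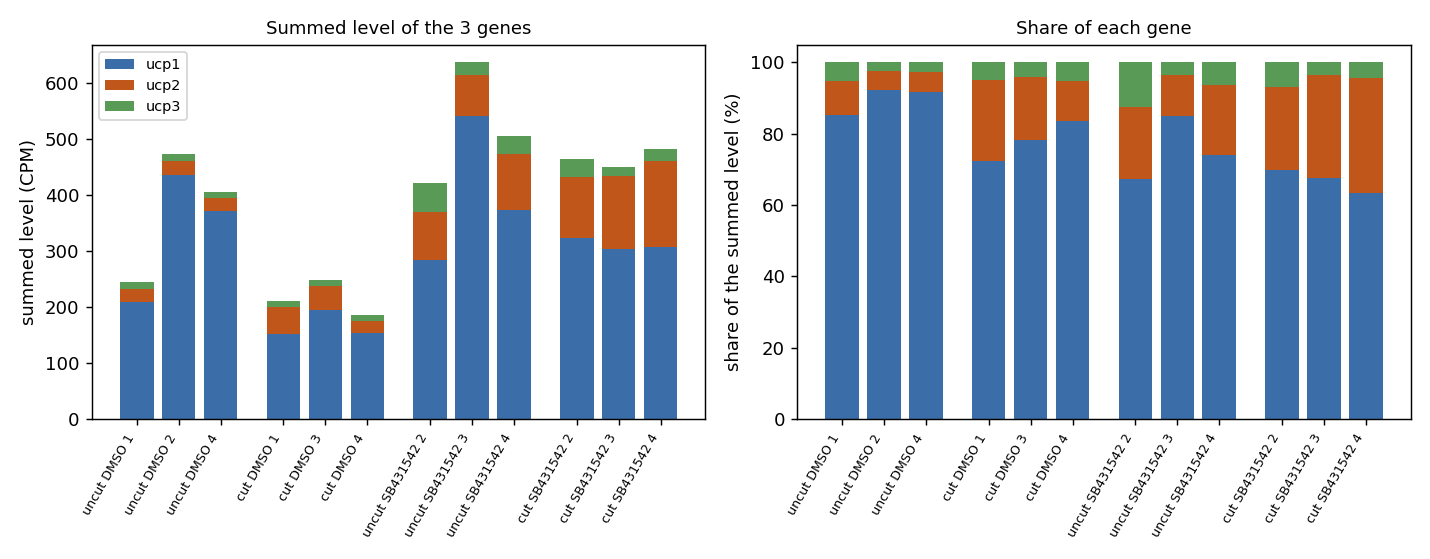
Summed level of ucp1, ucp2 and ucp3 (CPM, left) and the share of each gene in that sum (%, right) in each library, ordered by group and replicate number. The ucp2 share runs from 5.29% to 9.50% in uncut DMSO libraries and from 23.3% to 32.2% in cut SB431542 libraries.

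Markers of the cell types that the tail holds were read beside these levels. Of 12 tested macrophage and neutrophil markers, 10 were called higher and 0 lower after excision under DMSO, and 7 and 0 under SB431542. Their summed level was 712 to 1066 CPM in uncut DMSO, 2086 to 2206 in cut DMSO, 656 to 878 in uncut SB431542 and 1095 to 1618 in cut SB431542. No matched marker was at 0 over the 12 libraries, but csf1ra had 31 counts in all, and apoeb, which other cells make too, and lyz held most of the counts, 98512 and 34613. mpeg1.1, mfap4.1 and mpx had no matching symbol and were not analysed here. With SB431542 0 of the 12 markers were called in cut or in uncut tails, beside 0.286% and 0.0787% of all tested genes. With shares that low, a count of 0 says nothing particular about the markers. Of the 12, 4 had a log2 fold change above 0 with SB431542 in cut tails. The sum was lower with SB431542 than with DMSO in cut tails and overlapped between treatments in uncut tails. Most of that lower sum was apoeb, at 1598 ± 65.2 CPM in cut DMSO and 856 ± 188 in cut SB431542. Over the 12 markers the log2 fold changes with SB431542 in cut tails ran from -1.04 to 1.14. In cut DMSO replicates 1, 3 and 4 the sum was 2172, 2086 and 2206 CPM, beside ucp2 levels of 48.1, 43.9 and 21.0 CPM. The part of these cells in the ucp2 level was not tested.

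Of 23 tested skeletal muscle markers 11 were called lower and 1 higher after excision under DMSO, and 3 lower and 0 higher under SB431542. Their sum was 166606 to 185185 CPM in uncut and 87042 to 121865 in cut DMSO tails, and 159470 to 181689 in uncut and 102773 to 122538 in cut SB431542 tails. Epidermal markers summed to 19607 to 29296 CPM in uncut and 11624 to 14203 in cut DMSO tails, with 5 of 11 called lower and 2 higher. They summed to 19927 to 24079 CPM in uncut and 14309 to 17233 in cut SB431542 tails, with 0 called lower and 1 higher. The muscle and epidermal sums were lower in cut than in uncut tails under both treatments. krt4 and cyt1 held most of the epidermal sum, at 9295 ± 2408 and 7369 ± 1605 CPM in uncut DMSO. By gene the epidermal list was mixed. After excision 4 of its 11 genes had a log2 fold change above 0 under DMSO and 6 under SB431542. The medians were -0.24 and 0.33, so the lower sum does not hold for the list as a whole. The ucp1 log2 fold changes after excision were -1.02 with DMSO and -0.36 with SB431542, where the ucp1 groups overlapped. The part of such tissue in the ucp1 level was not tested. With SB431542 0 of the 23 muscle markers and 0 of the 11 epidermal markers were called in cut or in uncut tails, with median log2 fold changes of 0.13 and 0.19 in cut tails and -0.11 and -0.01 in uncut tails. Cell cycle genes, erythrocyte and endothelial markers also had 0 calls with SB431542 in either. Beside 0.286% of all tested genes called in cut and 0.0787% in uncut tails, these counts of 0 say nothing particular about the lists. The median log2 fold change of all tested genes was between -0.04 and 0.02 in every comparison.

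Genes that work beside the uncoupling proteins were counted against the share of all tested genes called, which with SB431542 was 0.0787% in uncut and 0.286% in cut tails. At such shares a count of 0 in a list of this size says nothing particular about the list. After excision the share was 5.58% under DMSO and 2.06% under SB431542. Of 28 tested genes of fatty acid oxidation and of targets of PPARs, the nuclear receptors for fatty acids, 0 were called in any comparison. The median log2 fold change of that list with SB431542 was 0.17 in uncut and 0.10 in cut tails, with 20 and 17 genes above 0, against medians of 0.01 and 0.00 over all tested genes. ANGPTL4, a PPAR target that inhibits lipoprotein lipase, had the highest value of the list with SB431542 in uncut tails, a log2 fold change of 3.45 ± 1.11 (adjusted p = 0.181, edgeR's quasi-likelihood test). It stood at 5.19, 5.03 and 57.7 CPM in uncut SB431542 replicates 2, 3 and 4 and at 1.86 to 2.71 CPM in uncut DMSO, so the library that stood apart was the 1 that was high. Without that library, an alternative chosen after the data were seen, the ANGPTL4 log2 fold change was 1.26 ± 0.53 (adjusted p = 0.422, edgeR). CPT1B, which brings long-chain fatty acids to the mitochondria of muscle, and PDK4, which turns off pyruvate oxidation, had log2 fold changes of 0.38 ± 0.19 and 0.39 ± 0.32 with SB431542 in cut tails (edgeR adjusted p = 0.358 and 0.598) and of 0.17 ± 0.19 and 0.01 ± 0.33 in uncut tails (0.692 and 0.991). PDK4 stood at 32.9, 24.9 and 8.47 CPM in uncut SB431542 replicates 2, 3 and 4 and at 19.6 to 22.8 CPM in uncut DMSO. Its low library was the same that stood apart, so the PDK4 value in uncut tails rests partly on it. ANGPTL4, CPT1B and PDK4 were named after their values were seen.

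Of 11 tested regulators of these pathways, among them PRKAA1 and PRKAA2 of the energy sensor AMPK, 0 were called in any comparison. Beside at most 5.58% of all tested genes called, a count of 0 in 11 genes says nothing particular about them. The PPAR and PGC-1 genes pparaa, pparg and PPARGC1A had at most 1, 5 and 7 counts in any library and were too low to test. At that depth a difference in them was not detectable.

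Among 31 other tested mitochondrial carrier genes 0 were called with SB431542, against the same shares of all genes, and their median log2 fold changes were 0.05 in uncut and 0.06 in cut tails. The relatives slc25a14 and SLC25A27, which are also known as UCP5 and UCP4 and were named after their values were seen, had means of 6.75 to 8.27 and 0.813 to 1.42 CPM over the 4 groups. Their log2 fold changes with SB431542 were -0.02 ± 0.33 and 0.40 ± 0.57 in uncut tails and 0.19 ± 0.32 and 0.35 ± 0.58 in cut tails. In uncut SB431542 replicates 2, 3 and 4 slc25a14 stood at 4.60, 6.51 and 12.5 CPM, beside 6.35 to 9.57 CPM in uncut DMSO. The highest was the library that stood apart, so the slc25a14 value in uncut tails rests partly on it. After excision under DMSO SLC25A4, the ADP/ATP carrier of muscle, fell 1.84-fold from 2724 ± 113 to 1481 ± 375 CPM (edgeR adjusted p = 0.00826), the single call of the list. It made up 3.23% of the list, beside 5.58% of all tested genes called in that comparison. That list had a median of -0.27 after excision under DMSO and -0.22 under SB431542, in the direction of ucp1 and ucp3 rather than ucp2. The ucp3 values there were -0.18 ± 0.32 and -0.67 ± 0.27.

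Of 18 tested antioxidant and oxidative stress genes 0 were called with SB431542, again against those shares. The peroxiredoxin gene prdx6 rose 1.66-fold after excision under DMSO, from 27.4 ± 3.27 to 45.6 ± 4.09 CPM (edgeR adjusted p = 0.0301), again the single call. That was 5.56% of the list, beside 5.58% of all tested genes called after excision under DMSO. Without uncut SB431542 replicate 4, when 473 genes were called with SB431542 in cut tails in place of 40, 2 of the other carriers were called higher there. Without uncut SB431542 replicate 3, when 666 genes were called in uncut tails in place of 11, 2 fatty acid oxidation genes, 4 carriers and 1 antioxidant gene were called higher there. The SLC25A4 call was lost without cut DMSO replicate 3 and the prdx6 call without any of cut DMSO replicates 3 and 4 and the 3 uncut DMSO libraries.

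**Figure D4:**
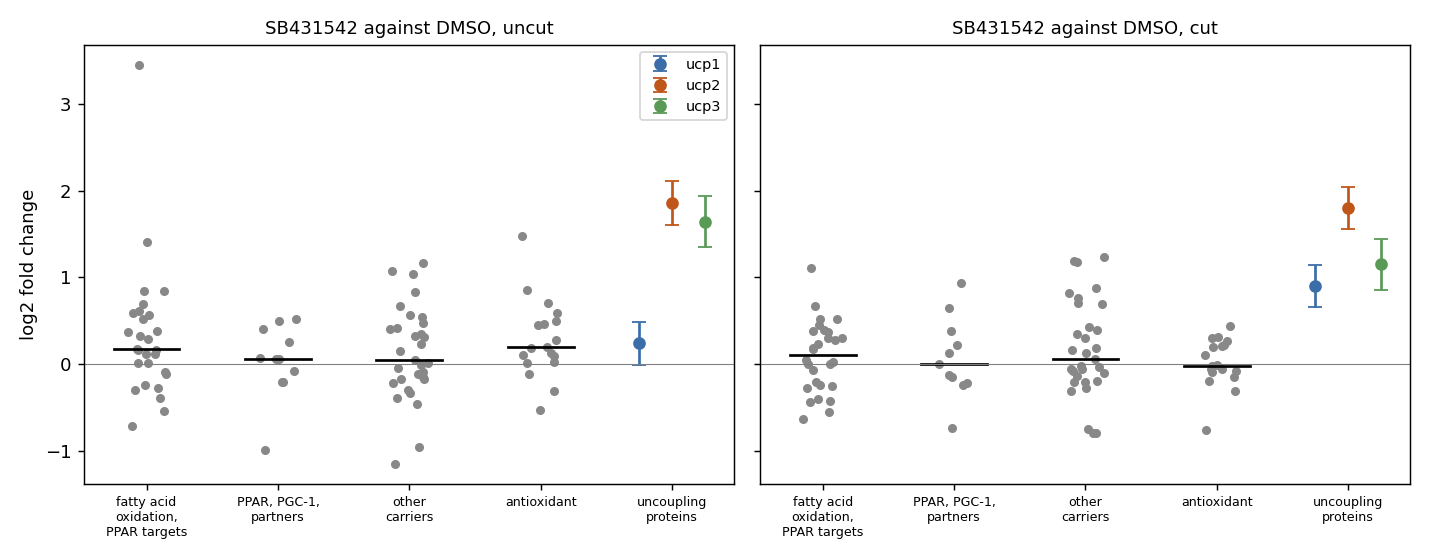
Log2 fold change with SB431542 against DMSO in uncut (left) and cut tails (right): grey points are single genes of 4 lists, black lines the list medians, and coloured points with bars the uncoupling protein genes ± SE. ucp2 lies at 1.85 and 1.80, and the only list gene above it in either panel is ANGPTL4, at 3.45 in uncut tails, which was 1.26 without uncut SB431542 replicate 4, when 0 list genes lay above ucp2.

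The 3 members did not share 1 pattern over the 12 libraries. The Pearson correlation of log2 CPM was 0.70 between ucp2 and ucp3, 0.41 between ucp1 and ucp3 and 0.32 between ucp1 and ucp2. These points include the differences between the 4 groups and are given as a description. They do not show that the members move together within a group. In uncut SB431542 replicates 2 and 3, ucp3 lay 0.64 and -0.61 log2 units from its group mean. There ucp2 lay at -0.01 and -0.20 and ucp1 at -0.44 and 0.49. In cut SB431542 replicates 2 and 3 the values were 0.53 and -0.47 for ucp3, -0.26 and 0.003 for ucp2 and 0.06 and -0.04 for ucp1. Of 7866 candidate genes (at least 5 CPM on average, with a gene symbol), 95.9% were less like ucp3 than ucp2 was.

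The genes most like ucp2 were AIFM2 (r = 0.96), whose product protects membranes from lipid peroxidation, prss59 (0.95), foxp1a (0.94), a transcription factor gene, MTREX (0.94), an RNA helicase gene, and TM9SF2 (0.94). AIFM2 stood at 2.65 ± 0.236 CPM in uncut DMSO, 4.17 ± 0.533 in cut DMSO, 9.25 ± 3.07 in uncut SB431542 and 10.1 ± 1.93 in cut SB431542. Its higher means with SB431542 are favoured by its choice for likeness to ucp2 over these same libraries. The most opposite were acbd3 and the ribosome biogenesis gene PES1, both at -0.95.

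The genes most like ucp3 were PIK3IP1 (r = 0.96), an inhibitor of PI3 kinase, SLC25A43 (0.95), itself a mitochondrial carrier, RNLS (0.90), the muscle transcription factor gene MYOD1 (0.90) and ARRDC2 (0.89). MYOD1 stood at 24.4 ± 2.28 and 24.5 ± 2.03 CPM in uncut and cut DMSO and at 40.8 ± 11.2 and 32.5 ± 7.18 CPM in uncut and cut SB431542. SLC25A43 stood at 8.93 ± 0.689 and 9.05 ± 0.420 CPM with DMSO and at 15.8 ± 4.19 and 14.8 ± 2.99 CPM with SB431542. Each had its highest means in the SB431542 groups, which the choice by likeness to ucp3 favours. MAPKAPK2 (-0.94) and the endothelin receptor gene EDNRA (-0.91) were the most opposite.

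The likeness to ucp1 was looser. dap1b (0.87), PCBP4 (0.86), il17rc (0.84), FH (ENSDARG00000075132, 0.83), which encodes fumarate hydratase of the citric acid cycle, and DIRAS1 (ENSDARG00000028066, 0.83) led. FH stood at 48.0 ± 4.02 CPM in uncut DMSO, 25.02 ± 3.96 in cut DMSO, 48.7 ± 8.31 in uncut SB431542 and 40.9 ± 7.15 in cut SB431542. Its lowest group was cut DMSO, which the choice by likeness to ucp1 favours. GLRX3 and akap8l were the most opposite, both at -0.90. Without uncut SB431542 replicate 4 the correlations of the 15 most similar genes lay between 0.83 and 0.97. With the group means taken out they lay between 0.40, for FH, and 0.93, for MTREX. The choice of these genes by likeness over the same libraries favours high values in both.

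**Figure D5:**
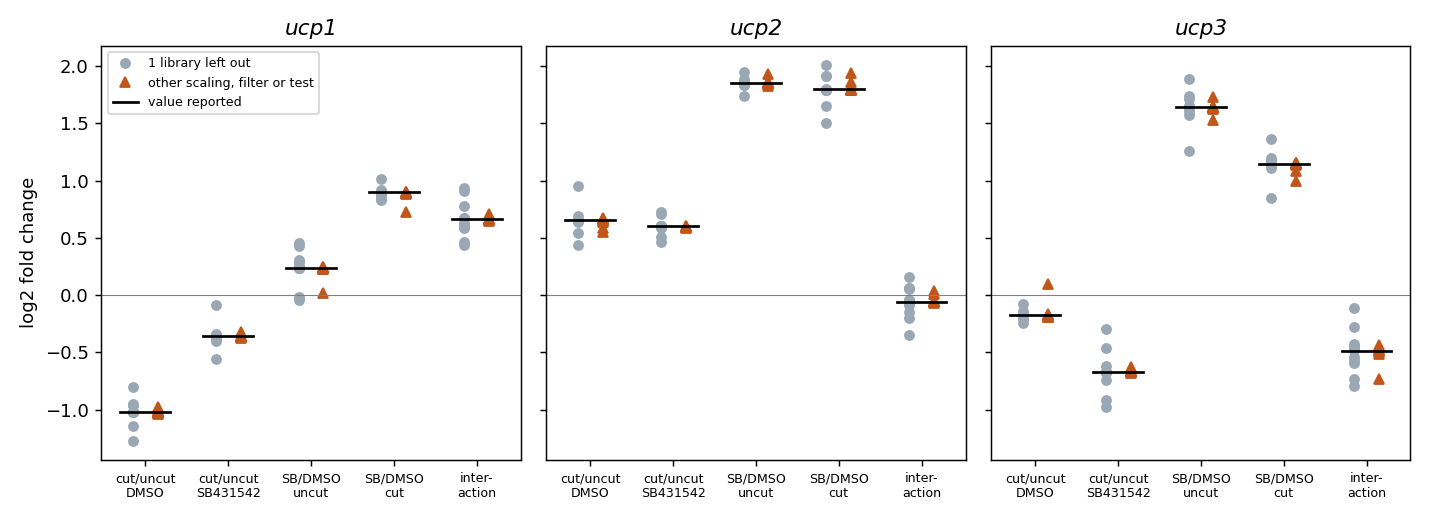
Log2 fold change of each gene in each comparison as reported (black line), with 1 library left out (grey circles) and with another scaling, filter, model or test (orange triangles). ucp2 and ucp3 stay above 0 with SB431542 under every setting, and the ucp1 value in uncut tails lies on both sides of 0.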

How the data were processed

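The authors deposited estimated counts per Ensembl gene, not normalized, with the build GRCz11 named in the submitters' processing notes; of the aligner, counter and annotation the name is not given in the sources used here. Libraries were made with a QuantSeq FWD kit, per the labels' protocols. The authors also deposited a normalized signal per gene, the rounded count divided by 1 factor per library. Whole reads were recovered for 100% of its values within 1e-04, and the edgeR test on them called 780, 288, 40, 11 and 0 genes, the same counts as the main test.

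Counts were rounded and tested with edgeR 4.0.16 (R 4.3.3): filterByExpr, TMM scaling, 1 fit of 4 group means, robust quasi-likelihood F test, two-sided, Benjamini-Hochberg adjustment over 13978 genes. Fold changes are log2 with SE from the F statistic. CPM uses TMM-scaled library sizes, and likeness is Pearson's r of log2 CPM with a prior count of 2. Alternatives were RLE scaling, DESeq2 1.42.0, no or a stricter filter (10 counts in each library of a group and 1 CPM on average), the replicate number as a block, only the groups compared, limma 3.58.1 on the normalized table plus a pseudocount of 1, each library left out and, added after the data were seen, the older quasi-dispersion method of edgeR.

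The members and 10 gene lists were chosen with earlier results of these data known. Named genes were the 3 members, the 5 most and 2 least similar genes per member, and up to 3 called genes per described list with the smallest adjusted p; marker lists are given as counts, sums and medians. Genes outside this rule (ANGPTL4, CPT1B, PDK4, slc25a14, SLC25A27, apoeb, lyz, csf1ra, krt4 and cyt1) were named after their values were seen. Symbols came from a table matching 78% of gene IDs; of the list entries 65 matched exactly, 80 with case ignored, 35 without a paralogue letter and 13 not at all.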

Additional observations from a re-analysis of the deposited data

How the results depend on the processing

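The ucp2 and ucp3 log2 fold changes with SB431542 kept their sign in all 20 alternatives, from 1.74 to 1.95 and 1.26 to 1.88 in uncut tails and from 1.51 to 2.01 and 0.85 to 1.36 in cut tails. With the replicate block the ucp3 value after excision under DMSO was 0.10 and the ucp1 value with SB431542 in cut tails 0.73, and no other member's value moved by more than the spread between libraries under any alternative; the cause was not tested. Over all tested genes the deviations of same-numbered libraries from their group means correlated at -0.05 to 0.34 (4 of 13 pairs over 0.1, median 0.04), so the numbers were not taken to pair the libraries. The highest was replicate 4 of cut and uncut SB431542, where replicates 2 and 3 gave 0.18 and -0.03. Pairs of unlike number in those groups ran from -0.28 to 0.18. The ucp2 interaction, at -0.06, ran from -0.35 to 0.16. DESeq2 called ucp1, ucp2 and ucp3 with SB431542 in cut tails, as did the fit of only the groups compared. Those settings called 323 and 537 genes there in place of 40. Of the 20 alternatives, 2 called ucp1, 20 ucp2 and 6 ucp3 in that comparison.

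Counts of called genes depended more on the settings, and the cause was not tested. Excision under DMSO gave 1468 calls with only the groups compared and 321 to 1432 with 1 library left out. Excision under SB431542 gave 529 by DESeq2, 127 with only the groups compared and 119 to 399 with 1 library left out. SB431542 in cut tails gave 323 by DESeq2, 130 without a filter, 14 with the replicate block, 537 with only the groups compared, 14 by limma, 12 with the older method and 9 to 473 with 1 library left out, the most without uncut SB431542 replicate 4. SB431542 in uncut tails gave 1 with RLE scaling, 270 by DESeq2, 109 without a filter, 1 with the stricter filter, 18 with the replicate block, 4 with only the groups compared, 2 by limma and 0 to 666 with 1 library left out. Of the 4 metabolic lists, 0 to 3 genes were called after excision under DMSO, 0 to 1 under SB431542, 0 to 2 with SB431542 in cut and 0 to 7 in uncut tails, with 1 library left out. Depth limited pparaa, pparg and PPARGC1A, at under 10 counts.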
